A study of Mus musculus with 6 samples.

Results

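A set of genes of the cell-intrinsic defence against viruses were followed in RENCA cells that overexpressed AQP1, a water channel: Mx1, Mx2, Rsad2, Cmpk2, Bst2, Samhd1, Isg20, Ifitm1, Ifitm2 and Ifitm3. They were chosen by name as effectors of the interferon response and are 10 of the 78298 genes in the deposited table. Earlier results of these data were known when they were chosen, so their counts are a description and not a test. RENCA is an established mouse line of renal adenocarcinoma cells that arose in a BALB/c mouse. One group (oe-AQP1) carried a lentiviral vector with the mouse Aqp1 coding sequence, and the other (oe-NC) carried the empty vector. Both groups were transduced, left for 48 hours and then selected for 14 days in puromycin (2 μg/mL), so both hold an integrated vector and a resistance cassette. Each group had 3 samples, and the labels name a single batch. Untransduced cells were not analysed here. The labels do not say whether the 3 samples of a group came from separate transductions, so the p-values below measure the spread between these samples, and the insert cannot be told apart from anything else that differs between the selected populations.

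Cells that sense viral nucleic acid secrete type I interferon, which binds its receptor on the same and on neighbouring cells and, through JAK kinases and transcription factors such as IRF9, switches on a large set of interferon-stimulated genes. The genes followed here act at different steps of a viral life cycle. The IFITM proteins sit in the plasma and endosomal membranes and hinder virus fusion, the Mx proteins are dynamin-like GTPases that trap incoming nucleocapsids, viperin (encoded by Rsad2) and its neighbour CMPK2 act on nucleotides, SAMHD1 hydrolyses deoxynucleotides, ISG20 is an exonuclease and tetherin (encoded by Bst2) holds budding particles at the cell surface. In most inbred mouse strains Mx1 and Mx2 carry defects that leave no working protein, and the deposited table classes both as protein-coding genes with a loss of function. What was measured is their RNA.

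The overexpression was visible in every sample: Aqp1 counts ran from 7713 to 8545 with the Aqp1 vector and from 25 to 45 with the empty one (log2FC = 7.70, SE 0.16, FDR = 1.34e-10). Each sample held between 18385714.02 and 21920898.67 expected counts, which are estimated read counts per gene. Levels are given as CPM, a gene's counts brought to the same fixed total in all samples. The divisor was the library's total over genes that passed the filter on low counts, times a scaling factor between samples. Of 10 renal epithelial markers, Pax8, Krt8 and Krt18 were present in every sample (means of 164, 299 and 172 CPM in oe-AQP1), Cdh1 had 38 to 78 counts and Epcam had none in any sample. On FDR 5 of the 9 tested were lower in oe-AQP1, beside 16.6% of all genes tested, and the list summed to 831 to 860 CPM there and to 1005 to 1116 CPM in oe-NC. The part of this in the results was not tested. Of 10 macrophage markers, Adgre1, C1qa and Tyrobp had no count in any sample and Ptprc had at most 3. Csf1r had 56 to 76 counts in oe-AQP1 against 173 to 202 among the controls (log2FC = -1.51, FDR = 1.31e-05), Lyz2 was lower as well (-0.52), and Cd68 (576 to 777 counts) and Spi1 (65 to 99) were present in every sample without passing the test. Siglech of the plasmacytoid dendritic cells, which express Bst2 at rest, had none. The summed macrophage markers ran from 52.0 to 55.6 CPM in oe-AQP1 and from 60.0 to 63.9 CPM in oe-NC. Of the lymphocyte markers only Cd79a, of the dendritic markers only Tcf4 (log2FC = 0.48) and of the endothelial and fibroblast markers only Pecam1 and Pdgfrb (0.34) passed the filter on low counts, and those 3 lists summed to at most 1.55, 37.6 and 46.6 CPM in any sample. One sample stood apart. Between oe-NC sample 1 and the other two oe-NC samples the chi-square per gene was 8.76 and 10.1, against 1.71 to 1.99 for every other pair within a group. Values without that sample are given for Bst2, Ifitm2 and Ifitm3, where it was the lowest control by a clear margin. In bulk RNA a larger share of responding cells and more RNA per cell cannot be told apart.

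The stretches before the start of transcription are shown first, because interferon factors are known to reach their target genes through short words that often lie there. The core of the interferon-stimulated response element (ISRE), taken as the word GAAA given again after any 2 bases, was searched on both strands in RefSeq windows of 300 bases (250 before and 50 after the start, build GRCm38.p6). Windows were at hand for 8 of the 10 genes, 10 windows in all since Isg20 had 3, and for Mx1 and Mx2 none was. The core was found in 4 of these 8 genes (Rsad2, Bst2, Ifitm2 and Ifitm3), each with 1 window, and in 3.44% of all 32851 windows. The 250 bases before the start of 4 genes are given 5′ to 3′ on the strand of the gene, with the core in capitals. Rsad2 lies on the minus strand at chr12:26456453-26456702, Cmpk2 on the plus strand at chr12:26468965-26469214, Bst2 on the minus strand at chr8:71537473-71537722 and Ifitm2 on the minus strand at chr7:140955962-140956211. Rsad2 and Cmpk2 are shown as head-to-head neighbours of which 1 holds the core, Bst2 for its 2 overlapping copies, and Ifitm2 as the family member that moved least:
Rsad2: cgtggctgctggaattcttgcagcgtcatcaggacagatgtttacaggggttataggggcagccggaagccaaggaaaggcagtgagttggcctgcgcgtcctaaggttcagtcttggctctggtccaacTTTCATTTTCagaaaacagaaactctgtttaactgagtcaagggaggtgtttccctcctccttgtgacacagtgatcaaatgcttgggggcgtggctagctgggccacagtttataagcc
Cmpk2: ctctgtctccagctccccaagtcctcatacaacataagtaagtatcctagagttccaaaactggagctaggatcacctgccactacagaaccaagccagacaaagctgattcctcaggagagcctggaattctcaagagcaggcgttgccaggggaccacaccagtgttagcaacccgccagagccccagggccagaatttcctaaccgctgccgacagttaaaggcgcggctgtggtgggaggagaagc
Bst2: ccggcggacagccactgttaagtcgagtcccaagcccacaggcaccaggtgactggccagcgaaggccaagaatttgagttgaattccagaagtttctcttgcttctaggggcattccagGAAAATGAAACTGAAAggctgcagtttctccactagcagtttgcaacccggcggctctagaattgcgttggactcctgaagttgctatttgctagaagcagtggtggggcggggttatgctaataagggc
Ifitm2: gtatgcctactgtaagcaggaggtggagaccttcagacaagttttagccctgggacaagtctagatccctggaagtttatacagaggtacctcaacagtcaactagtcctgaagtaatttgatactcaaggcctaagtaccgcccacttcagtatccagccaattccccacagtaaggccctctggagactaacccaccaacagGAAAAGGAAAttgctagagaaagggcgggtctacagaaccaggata
In Ifitm3 both cores lay after the start, at bases 3 to 12 and 20 to 29 of the transcript (minus strand, chr7:141010716-141010742), in these 27 bases:
Ifitm3: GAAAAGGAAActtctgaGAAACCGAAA
Counted from the start, with -1 the base before it, the core began at -120 in Rsad2, where it reads on the opposite strand, at -130 and -124 in Bst2 and at -46 in Ifitm2. The first transcribed bases of the Bst2 window were not found among GENCODE M39 transcripts, so its distances hold for the RefSeq start only. The gamma-activated site, TTC and GAA with any 3 bases between, was in windows of Bst2, Samhd1, Isg20 (1 of its 3) and Ifitm3. It was in 8.30% of all windows, and the copies in Bst2 and Ifitm3 overlap an ISRE core. The sequences are those of the reference strain and were not read from RENCA cells. Such a match is a description of letters and not a binding site.

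Of the 10 genes, 9 passed the filter on low counts and 7 of these were called higher in oe-AQP1 (FDR under 0.05 and log2FC above 1), where 4.39% of the 15522 genes tested were called higher, 0.844% lower and 5.23% in either direction. On FDR alone 8 of the 9 were higher, beside 16.0% of all genes tested. None was lower. The median log2FC of the 9 was 1.57 and that of all genes tested was 0.0023. In all 10 genes the lowest oe-AQP1 sample lay above the highest oe-NC sample in CPM, as it did in 23.5% of the genes tested. Together the 10 genes took 0.698% to 0.700% of the reads counted in the oe-AQP1 samples and 0.189% to 0.216% in the oe-NC samples.

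**Figure D1:**
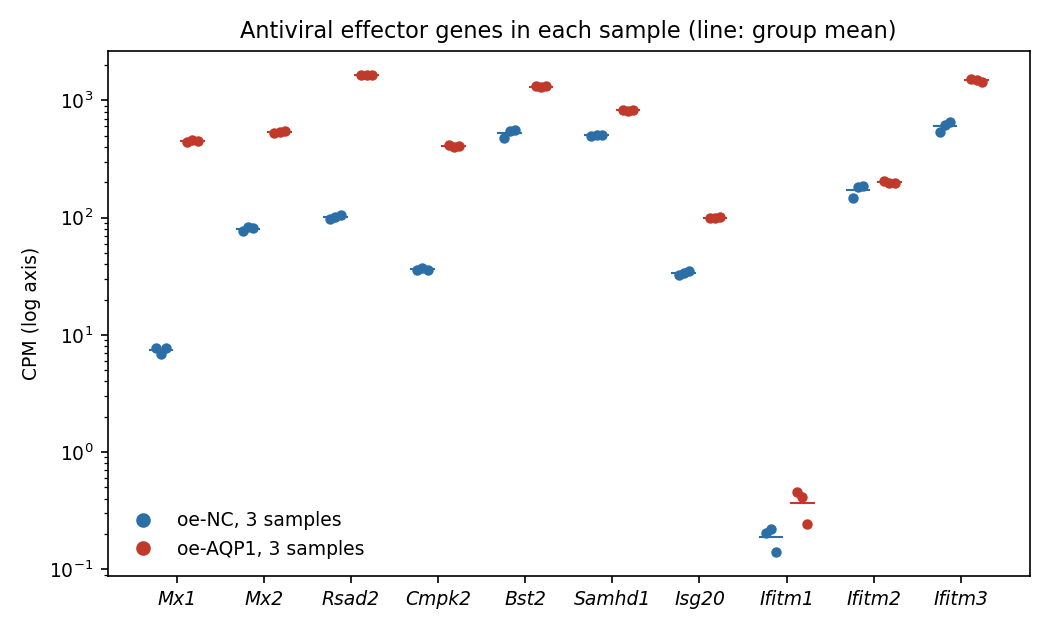
CPM of the 10 genes (log axis) in each of the 3 oe-NC samples (blue) and 3 oe-AQP1 samples (red), with the group mean as a line. No gene has overlapping groups, and the distance between the means is 60.4-fold in Mx1 and 1.15-fold in Ifitm2.

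Mx1, which in mice with a working copy gives resistance to influenza virus, had the largest change of the set. Its level was 442, 456 and 454 CPM in the oe-AQP1 samples and 7.74, 6.84 and 7.79 CPM in the oe-NC samples. The control samples sat close together at a low level and each oe-AQP1 sample was far above them. The log2FC was 5.91 (SE 0.076, FDR = 6.77e-12), a 60.2-fold difference with a 95% interval of 53.5 to 67.6. Ranked by level per kilobase among 11856 protein-coding genes, Mx1 went from place 8743 in oe-NC to place 181 in oe-AQP1. Among the log2FC values of all genes tested it ranked 5.

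Its paralog Mx2, which acts on viruses that replicate in the cytoplasm, had 526, 535 and 549 CPM in oe-AQP1 and 76.9, 82.5 and 81.7 CPM in oe-NC (log2FC = 2.74, SE 0.041, FDR = 1.96e-11). The groups were again far apart, from a control level well above that of Mx1. The Mx1 to Mx2 ratio of CPM, taken within each sample and averaged on the log scale, was 0.0927 in oe-NC and 0.840 in oe-AQP1, so that the pair was nearly level in oe-AQP1. The difference of the log2 ratios was 3.18, and the samples of the groups did not overlap (exact two-sided permutation test, p = 0.1, the smallest that 3 against 3 can give, 0.133 after adjustment over 4 ratios). Both genes lie on chromosome 16 (GRCm39, Mx1 at 97248235 to 97264107 on the minus strand, Mx2 at 97336508 to 97362100 on the plus strand). They share 159 words of 50 bases, which is 4.35% of those in Mx1, and their expected counts were not whole in any sample, as is seen where a counter divides reads among genes. The antisense gene Gm60893, which overlaps Mx1, had 9 to 18 counts in oe-AQP1 and 0 in each oe-NC sample, and whether the counting used strand is not given in the sources used here.

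Rsad2 encodes viperin, a radical SAM enzyme that turns CTP into a chain-terminating nucleotide. It had 1634, 1644 and 1662 CPM in oe-AQP1 and 97.1, 101 and 106 CPM in oe-NC. The oe-AQP1 samples were close together (coefficient of variation 0.870%), and all were far above the controls. The log2FC was 4.02 (SE 0.038, FDR = 1.42e-12), a 16.2-fold difference (95% interval 15.3 to 17.2). Rsad2 moved from place 1624 to place 48 in level per kilobase.

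Cmpk2 encodes a mitochondrial nucleoside monophosphate kinase that can supply CTP, and its gene (GRCm39 chromosome 12, 26519203 to 26529836, plus strand) lies 12.8 kb from Rsad2 (26492745 to 26506451, minus strand). It had 415, 404 and 412 CPM in oe-AQP1 and 36.0, 37.4 and 35.8 CPM in oe-NC (log2FC = 3.50, SE 0.043, FDR = 5.91e-12). Like its neighbour it did not overlap between groups. There were 2.79 Rsad2 reads for each Cmpk2 read in oe-NC and 4.01 in oe-AQP1, a difference of 0.53 in the log2 ratio (exact two-sided permutation test, p = 0.1, adjusted 0.133). The 95% intervals of their log2FC do not meet, with Rsad2 the higher.

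Isg20 (GRCm39 chromosome 7, 78562598 to 78570153, plus strand), an exonuclease of single-stranded RNA, had 99.6, 100.2 and 100.4 CPM in oe-AQP1 and 32.4, 33.6 and 35.0 CPM in oe-NC (log2FC = 1.57, SE 0.047, FDR = 2.65e-09). The oe-AQP1 samples were almost equal, with a coefficient of variation of 0.389%. Samhd1 (chromosome 2, 156939453 to 156977187, minus strand), which removes the deoxynucleotides that reverse transcription needs, had 830, 814 and 833 CPM in oe-AQP1 and 499, 510 and 505 CPM in oe-NC. It was higher in every oe-AQP1 sample by a small and even step, with a log2FC of 0.71 (SE 0.030, FDR = 4.27e-08), and did not reach the fold threshold.

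Bst2, the tetherin gene (GRCm39 chromosome 8, 71986895 to 71990114, minus strand), had 1320, 1300 and 1328 CPM in oe-AQP1 and 474, 552 and 555 CPM in oe-NC. All oe-AQP1 samples were above all controls, and oe-NC sample 1 was the low one among the controls. The log2FC was 1.32 (SE 0.053, FDR = 3.05e-08), and 1.25 without oe-NC sample 1. Bst2 was abundant in both groups, at place 40 in oe-NC and place 10 in oe-AQP1.

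The 3 Ifitm genes lie together on chromosome 7 (GRCm39, Ifitm2 at 140534738 to 140536228 and Ifitm3 at 140589499 to 140591282 on the minus strand, Ifitm1 between them at 140546316 to 140549743 on the plus strand) and had unlike values. Ifitm3, the best known inhibitor of influenza virus entry among them, had 1528, 1506 and 1432 CPM in oe-AQP1 and 534, 619 and 654 CPM in oe-NC. The oe-AQP1 samples were all higher, and oe-NC sample 1 was again the lowest control. Its log2FC was 1.31 (SE 0.063, FDR = 1.24e-07), and 1.22 without that sample.

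Ifitm2, a close paralog 53.3 kb away, had 204, 198 and 197 CPM in oe-AQP1 and 149, 183 and 187 CPM in oe-NC. The nearest samples of the groups were a short step apart and oe-NC sample 1 was far below the other controls. The log2FC was 0.21 (SE 0.075) and did not pass the test (FDR = 0.0544). Without oe-NC sample 1 the log2FC was 0.11 and the FDR 0.00290, a smaller difference that passed. Over 17 other settings Ifitm2 passed in 9 and did not in 8, with log2FC from 0.11 to 0.27. The Ifitm2 to Ifitm3 ratio was 0.287 in oe-NC and 0.134 in oe-AQP1, a log2 difference of -1.10 (exact two-sided permutation test, p = 0.1, adjusted 0.133). Of the 50-base words of Ifitm2, 39.1% also occur in transcripts of other genes, and of those of Ifitm3 51.0%, in the latter mostly in the antisense gene Gm57251, which had 4 to 12 counts. Only 2.24% of the Ifitm3 words occur in the other genes of the set.

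Ifitm1 was near the limit of detection, where the oe-AQP1 samples held 9, 9 and 5 counts and the controls 4, 4 and 3. It did not pass the filter on low counts. With no filter its log2FC was 0.85 and its FDR 0.340, so a difference was not detectable at this depth.

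**Figure D2:**
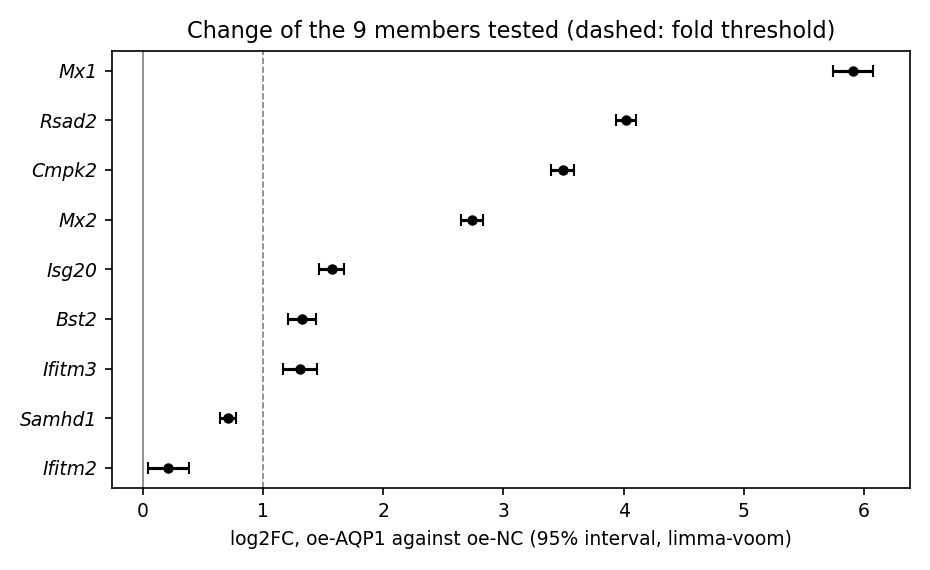
log2FC of the 9 genes tested with 95% intervals from limma-voom; the solid line marks no change and the dashed line the fold threshold. Mx1 is highest at 5.91, Samhd1 (0.71) and Ifitm2 (0.21) lie below the threshold, and neighbouring intervals meet for Bst2 and Ifitm3.

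Ordered by log2FC the genes ran Mx1, Rsad2, Cmpk2, Mx2, Isg20, Bst2, Ifitm3, Samhd1 and Ifitm2. Of the neighbours in that order Bst2 and Ifitm3 had overlapping intervals (a gap of 0.015), and the other pairs did not. Levels between genes were compared per kilobase of exon (RPKM). In oe-AQP1 the order was Ifitm3 (1162 ± 39.3, SD, n = 3), Bst2 (1084 ± 11.7), Rsad2 (380 ± 3.31), Ifitm2 (199.8 ± 3.43), Mx2 (149 ± 3.29), Mx1 (134 ± 2.30), Cmpk2 (94.96 ± 1.38), Samhd1 (90.2 ± 1.08), Isg20 (39.2 ± 0.152) and Ifitm1 (0.295 ± 0.0892), and no neighbours overlapped between samples. In oe-NC it was Ifitm3 (470 ± 48.3), Bst2 (434 ± 38.0), Ifitm2 (173 ± 21.4), Samhd1 (55.1 ± 0.582), Rsad2 (23.4 ± 1.02), Mx2 (22.2 ± 0.839), Isg20 (13.2 ± 0.518), Cmpk2 (8.42 ± 0.200), Mx1 (2.21 ± 0.159) and Ifitm1 (0.150 ± 0.0332), where Ifitm3 overlapped Bst2 and Rsad2 overlapped Mx2. Ifitm3 and Bst2 thus headed both orders and Ifitm1 closed both, while Rsad2, Mx2, Mx1 and Cmpk2 lay below Samhd1 in oe-NC and above it in oe-AQP1. These orders depend on the merged exon length, which was 9152 bases for Samhd1. By mean CPM in oe-AQP1, Rsad2 (1647) lay above Samhd1 (826), and Mx2 (537), Mx1 (451) and Cmpk2 (410) lay below it.

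**Figure D3:**
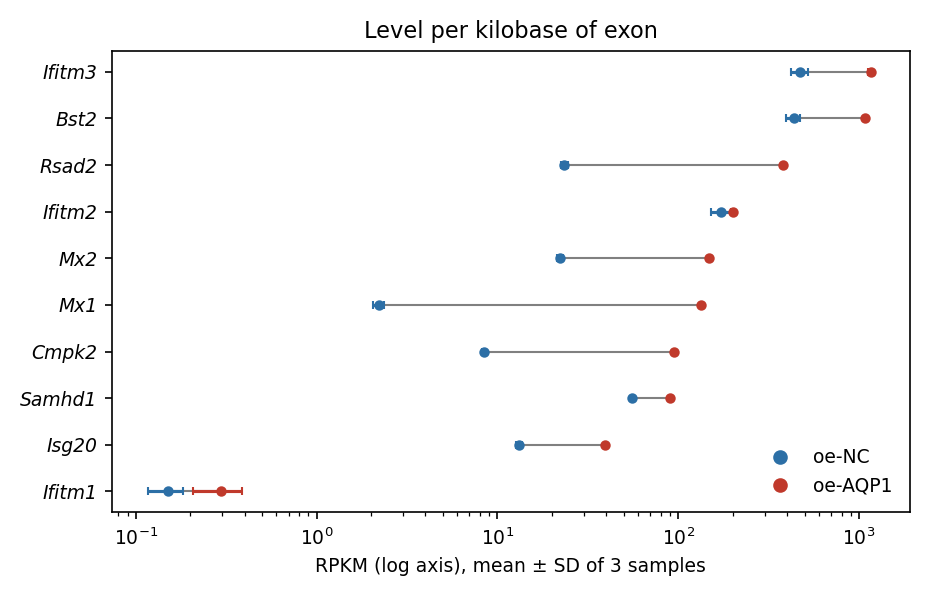
RPKM (log axis, mean ± SD of 3 samples) in oe-NC (blue) and oe-AQP1 (red), joined by a line for each gene. Ifitm3 and Bst2 are the highest in both groups, and Mx1 covers the longest distance, from 2.21 to 134.

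Related gene lists place these values. Of 24 other antiviral effectors 23 were tested, and 18 were higher and 1 was lower on FDR. Over all genes tested 16.0% were higher and 16.6% lower. The median log2FC of these effectors was 1.27. The largest changes were those of Ifit3 (log2FC = 4.85) and Ifit2 (3.96), and the smallest that passed were N4bp1 (0.16), an RNA-degrading factor, and Marchf8 (-0.32), a ubiquitin ligase of viral envelope proteins. Of 20 genes of interferon signaling 17 were tested, 10 were higher and 2 lower beside the same shares, with a median of 0.37. In neither list was the lower count above the share of all genes. Ifnb1, the interferon-β gene, rose from 3 to 6 counts in the controls to 264 to 288 in oe-AQP1 (log2FC = 5.72, FDR = 2.60e-07). Ifna4 had no count in the controls and 23 to 34 in oe-AQP1, at least 8.54-fold higher against a floor of 3 counts per library. The transcription factors Stat2 (1.97), Irf7 (1.97) and Irf9 (0.68) were higher, while the receptor subunit Ifnar1 (-0.08) did not pass. Jak1 (-0.11, FDR = 0.0457) and Ifngr1 (-0.21) were lower, Jak1 close to the threshold. The lower count of the interferon signaling list became 1 on leaving out any single sample other than oe-NC sample 1. The part of Ifnb1, Ifna4 and the higher transcription factors in the values of the set was not tested.

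Relatives of the set by family gave small values. Of 13 such relatives 9 were tested, 2 were higher and 2 lower, and the median was -0.13. Of all genes tested 16.0% were higher and 16.6% lower on FDR, and the count of relatives is near those shares. Aen (0.25) and Isg20l2 (0.14), exonucleases related to Isg20, were higher, and Ifitm10 (-0.42) and Hddc2 (-0.25) were lower. The count of 4 became 1 without oe-AQP1 sample 2, 2 without oe-NC sample 3 and 5 without oe-NC sample 1. Of the 16 genes tested of the deoxynucleotide pool, on which Samhd1 and Cmpk2 act, none was higher and 6 were lower. The shares over all genes tested were 16.0% and 16.6%, and the median of the list was -0.10. Among the lower genes were the ribonucleotide reductase subunit Rrm2 (-0.31) and the kinase Dck (-0.30). The smallest of these differences were those of Rrm1 (-0.12) and Dtymk (-0.14). That count was 2 without oe-AQP1 sample 1 or sample 2, and 3 without oe-AQP1 sample 3, oe-NC sample 2 or oe-NC sample 3. It rose to 8 without oe-NC sample 1. Of the 14 genes of virus entry and endosomes, where the IFITM proteins act, 3 were higher and 5 lower (median -0.03), beside the same shares over all genes, from Rab5a (0.21) and Lamp2 (0.20) to Vapb (-0.40) and the transferrin receptor Tfrc (-0.47).

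**Figure D4:**
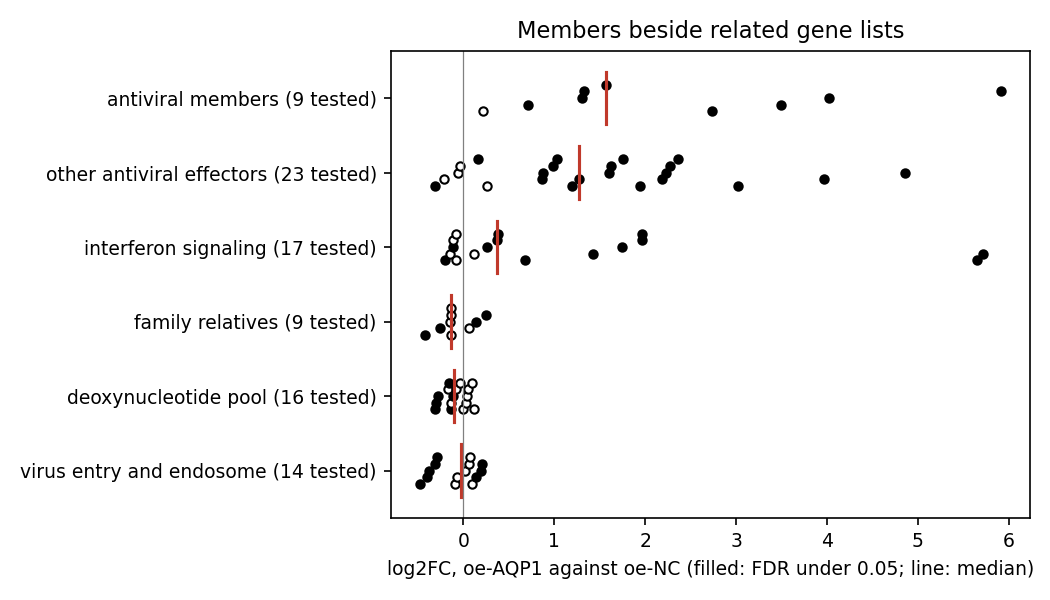
log2FC of each gene tested in the antiviral set and in 5 related lists; filled points passed an FDR of 0.05 and the red line is the median of the list. The antiviral set and the other antiviral effectors spread to the right (medians 1.57 and 1.27), and the relatives, deoxynucleotide and endosome lists stay between -0.47 and 0.25.

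Of the 28 other genes tested within 100 kb of a member, 8 were higher and 4 lower on FDR (16.0% and 16.6% over all genes tested), with a median log2FC of -0.04. Of the 28, 3 passed the fold threshold as well, all higher and all at low counts. Over all genes tested 4.39% were called higher. Fam3b, between Mx1 and Mx2, had 6 to 8 counts in the controls and 43 to 60 in oe-AQP1 (log2FC = 2.77, FDR = 5.58e-05). Tmprss2, 3.78 kb from Mx2 and known for cleaving influenza hemagglutinin, had 11 to 16 and 26 to 33 counts (1.10, FDR = 0.0113). Mroh8, 73.2 kb from Samhd1, had 5 to 10 and 17 to 23 counts (1.29, FDR = 0.0179). Pgghg, 6.24 kb from Ifitm2, was higher than Ifitm2 in log2FC (0.98, FDR = 1.41e-05), and Aen, 1.64 kb from Isg20, changed far less than Isg20.

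**Figure D5:**
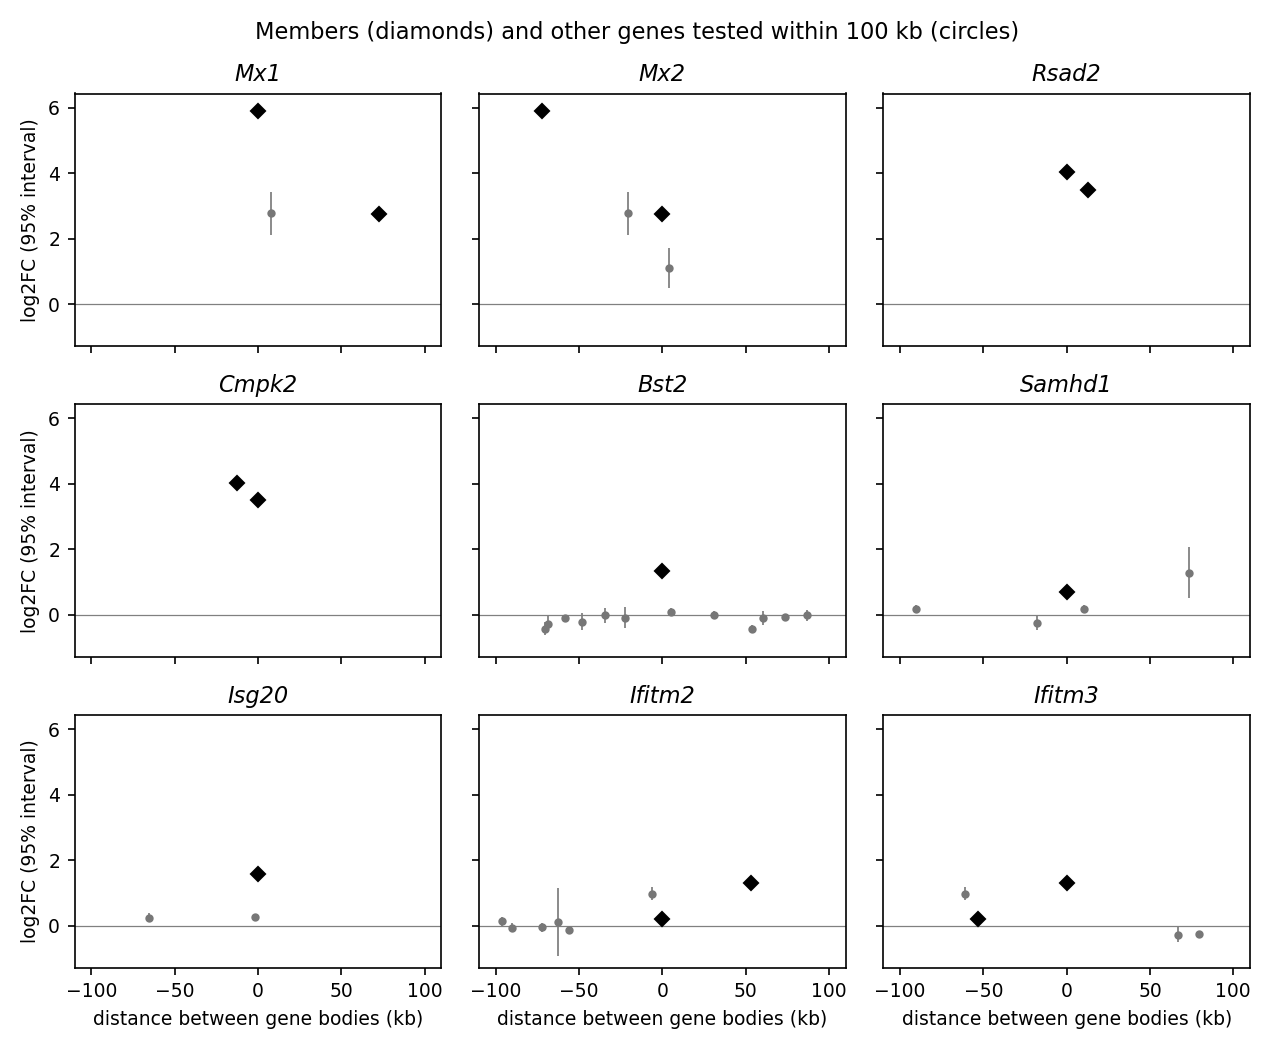
log2FC with 95% intervals against the distance between gene bodies in kb for 9 genes of the set (diamonds) and the other genes tested around them (circles). Around Bst2 the other genes lie between -0.43 and 0.09, while the gene between Mx1 and Mx2 is at 2.77.

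For each member the nearest gene outside the set was sought among 11797 genes, and other members were not compared. Nearness was the root mean square distance between log2 CPM profiles over the 6 samples, each centred on its own oe-NC mean. The distance thus compares changes and not levels. The nearest gene was Ifit2 for Rsad2 (0.051), Ifi47 for Mx2 (0.063), Csprs for Cmpk2 (0.052), Psmb8 for Isg20 (0.012), Zup1 for Bst2 (0.045) and H2-Q1 for Ifitm3 (0.059). For Samhd1 it was Gm56507 (0.031) and for Ifitm2 it was Ppp1r11 (0.011). Mx1 had no partner as close, the nearest being Ifi44l at 0.234 (log2FC = 5.67). Mx1 ranked 5 in log2FC among all genes tested, where few genes lie, and Ifi44l had a mean of 3.18 CPM in oe-NC. The part of either in this distance was not tested.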

How the data were processed

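RNA of 6 RENCA samples (3 oe-AQP1, 3 oe-NC) was sequenced by the authors from TruSeq libraries, and the expected counts per gene were deposited without scaling between samples. The submitters' processing notes name fastp, HISAT2, featureCounts and Subread with GRCm38 and mm10, while the paper names GRCm39, and 78168 of the 78298 identifiers were found in GENCODE M39 (GRCm39), from which gene positions and exon lengths were taken. The strand setting of the counting is not given in the sources used here. The authors set interferon-stimulated and viral defence genes aside in their own comparison, with the stated aim of limiting transfection artifacts. They retained inflammatory mediators that they held relevant to cancer. The genes set aside there are kept here. Group mean columns and annotation columns of the table were not used.

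Expected counts were rounded and genes kept by filterByExpr with the group, which left 15522. They were tested with limma-voom and TMM scaling (limma 3.58.1, edgeR 4.0.16, R 4.3.3), with Benjamini-Hochberg adjustment over all genes tested, giving the FDR. Depth was 18385714.02 to 21920898.67 counts per sample. CPM divides by the total of a sample over the genes kept, times its TMM factor, and RPKM is CPM per kilobase of merged exons. Ratios within samples were compared with exact permutation tests. The steps were tested on simulated data. As alternatives served DESeq2 1.42.0, the quasi-likelihood test of edgeR, quality weights, other scalings, filters and fold thresholds, unrounded counts, a replicate block and leaving out each sample.

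Named were all members, Aqp1, each list's 2 largest and 2 smallest changes past FDR, genes given a role and genes within 100 kb. Also named was the gene outside the set most similar to each member (mean of at least 50 counts). The members and lists were chosen with earlier results of these data known. Some values of the interferon signaling list and a detail of the vector are not reported here.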

Additional observations from a re-analysis of the deposited data

How the results depend on the processing

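No result changed direction under any alternative that was run. The number of genes called was 812, and became 482 with at least 10 counts in every sample, 506 with the file's protein_coding class only, 1682 at a log2 fold threshold of 0.5 and 259 at 2, where 4 members were called. The protein_coding setting drops Mx1 and Mx2 and gives 5 members called. Leaving out 1 sample gave 765 to 891 genes called, 7 members called each time, 8 to 9 members past FDR, 1 to 5 family relatives, 11 to 12 interferon signaling genes, 19 to 20 other effectors, 2 to 8 deoxynucleotide genes and 6 to 11 entry genes. The log2 ratio difference of Ifitm1 to Ifitm3 was -0.36 and ran from -0.62 to -0.11, and was -0.98 with 0.5 and -1.11 with 1 added to the CPM. In this ratio the groups overlapped (exact two-sided permutation test, p = 0.4, adjusted 0.4), and it rests on 3 to 9 Ifitm1 counts per sample.

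With a replicate block 786 genes and 7 members were called. Samples with the same number in both groups did not deviate together (correlations -0.00221, 0.0275 and -0.0413), and of the 3 oe-AQP1 samples only sample 2 correlated best with its own number, so the numbers are not taken as a pairing. Depth limits Ifitm1, Fam3b, Tmprss2 and Mroh8, which had few counts.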
